A study of Mus musculus with 15 samples.

Results

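Mcm2, Mcm3, Mcm4, Mcm5, Mcm6 and Mcm7 encode the subunits of the replicative DNA helicase. The 6 genes were taken by name from a table of 27179 mouse gene IDs, and all 6 had enough counts to be tested. The set was selected on the measured counts of Mcm6, which had been seen to be lower in every transgenic library than in the wild type, so its genotype difference and its ratio to its partners are given as a description, with no test. The partners, the comparison of the sexes and the interaction of genotype and sex are tested.

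RNA was measured in 15 bulk brain libraries, described as hemisphere tissue, from mice aged 12 months. TG mice were homozygous PLP-α-synuclein animals (4 female and 3 male libraries). They carried human α-synuclein under the PLP promoter, which is active mainly in oligodendrocytes, and are used as a model of multiple system atrophy. WT mice were non-transgenic C57Bl/6 animals, the background strain, matched for age and sex (4 female and 4 male libraries). The α-synuclein transgene was the one allele that the labels name, and no agent was given to either group. Each of the 4 groups had its own number series in the sample titles, whose meaning the labels do not give, so whatever it marks and the group cannot be told apart. The labels do not tie each library to its own animal, and p-values measure the spread between these libraries. The libraries held 15170772 to 35850998 counts each (median 17635366).

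Regional marker genes differed between libraries of the same group. Hoxa5, which patterns the hindbrain, was at 69.3 to 121 CPM (read counts scaled by library size and TMM factors) in TG females 1 and 4, WT male 3 and WT female 3. Neurod6, a transcription factor of cortical excitatory neurons, was at 131 to 171 CPM in TG male 4, WT male 4 and WT female 2. Gabra6, made by cerebellar granule neurons, was at 701 CPM in TG female 3. The other 7 libraries (3 TG and 4 WT) held Omp, a marker of olfactory sensory axons, at 42.2 to 159 CPM. These 4 library classes were formed from the data and are described as hindbrain-, cortex-, cerebellum- and olfactory-marker libraries, with no test between them. The cerebellum-marker class had 1 library, of TG, so class and genotype cannot be told apart in it.

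The 6 MCM proteins form a ring that is loaded onto DNA at replication origins before S phase, by the origin recognition complex with CDC6 and CDT1. CDC45 and the GINS complex then turn the ring into the helicase that unwinds DNA at the fork. In cycling cells the MCM genes are transcribed under control of E2F factors. Most cells of the adult brain do not divide, and oligodendrocyte precursors and the neuroblasts that migrate to the olfactory bulb are among those that come from dividing cells.

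The promoters are shown because E2F control is what these genes are known to share, and because Mcm6 was the subunit that differed between the genotypes. The sequences are from RefSeq on GRCm38.p6, where 5 of the 6 genes (all but Mcm4) were matched. The 4 E2F spellings TTTCCCGC, TTTCGCGC, TTTGCCGC and TTTGGCGC were searched on both strands from 250 bases before to 50 bases after each annotated start. At least 1 of them was present in 744 of 32851 promoters of that length (2.26%), and 2 or more in 32 (0.0974%). Mcm6 held 3 matches, of which 2 overlap at -110 to -99 and 1 lies at -47 to -40 from the start. The 250 bases before the start of Mcm6 (chr1:128359706-128359955, minus strand) are printed 5′ to 3′ with the E2F letters in capitals.
Mcm6: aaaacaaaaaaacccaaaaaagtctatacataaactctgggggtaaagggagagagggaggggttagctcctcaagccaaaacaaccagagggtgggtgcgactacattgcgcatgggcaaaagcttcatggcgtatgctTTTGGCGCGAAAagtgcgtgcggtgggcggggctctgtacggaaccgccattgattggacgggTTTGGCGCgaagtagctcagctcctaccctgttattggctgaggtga

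Mcm3, Mcm5 and Mcm7 held 2 matches each in the searched 300 bases, and Mcm2 held 0. The windows of 30 bases around the matches are given for comparison, on each gene's own strand and with the E2F letters in capitals. They lie at chr1:20820265-20820294 (Mcm3, minus strand, after the start), chr8:75109347-75109376 (Mcm5, plus strand, before the start), chr5:138172030-138172059 (Mcm7, minus strand, before the start) and chr5:138171849-138171878 (Mcm7, after the start). For Mcm7, before and after refer to the annotated start within the searched bases chr5:138171834-138172133. The gene as a whole is annotated up to 138172111 and Ap4m1 begins at 138172021, so the window before that start lies within both genes. Mcm7 has a further annotated start with 0 matches in its own 300 bases. In Mcm5, as upstream in Mcm6, the 2 matches overlap on opposite strands.
Mcm3: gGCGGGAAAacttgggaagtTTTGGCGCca
Mcm5: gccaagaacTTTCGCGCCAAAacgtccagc
Mcm7 before the start: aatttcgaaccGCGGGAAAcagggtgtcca
Mcm7 after the start: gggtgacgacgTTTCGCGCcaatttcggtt

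Mcm6, the subunit that binds the loading factor CDT1, was far lower in TG than in WT brain, while the level of each of the other 5 subunits overlapped between the genotypes. Mcm6 (gene ID 17219) lies on chromosome 1 at 128331575 to 128359705 of GRCm38.p6, on the minus strand, with 17 exons in its main transcript. In TG females it was at 0.774, 0.964, 0.716 and 0.624 CPM (libraries 1 to 4), and in TG males at 0.659, 0.933 and 0.229 CPM (libraries 1, 3 and 4). In WT females it was at 4.65, 2.84, 2.86 and 4.43 CPM, and in WT males at 3.28, 4.05, 2.66 and 3.09 CPM (libraries 1 to 4 in each). Every TG library lay below every WT library, the highest TG value being 0.964 CPM and the lowest WT value 2.66 CPM. The TG mean was 20.1% of the WT mean.

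The Mcm6 values rest on few reads in TG. The 7 TG libraries held 4 to 19 counts each and 87 in all, against 50 to 103 counts each and 570 in all in the 8 WT libraries. TG male 4 had the fewest, 4 counts, with a 95% Poisson interval of 1.09 to 10.2 counts, which covers counting error alone. The log2 difference (TG minus WT) was -2.32 ± 0.25 (SE), in edgeR's quasi-likelihood fit with sex as covariate. No gene-wide test is given for it, since that contrast chose the gene. Among all 17151 tested genes, 16 (0.0933%) had every TG library below every WT library, and as many had every TG library above. In these bulk samples, fewer cells that make Mcm6 and less Mcm6 RNA per cell cannot be told apart.

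**Figure D1:**
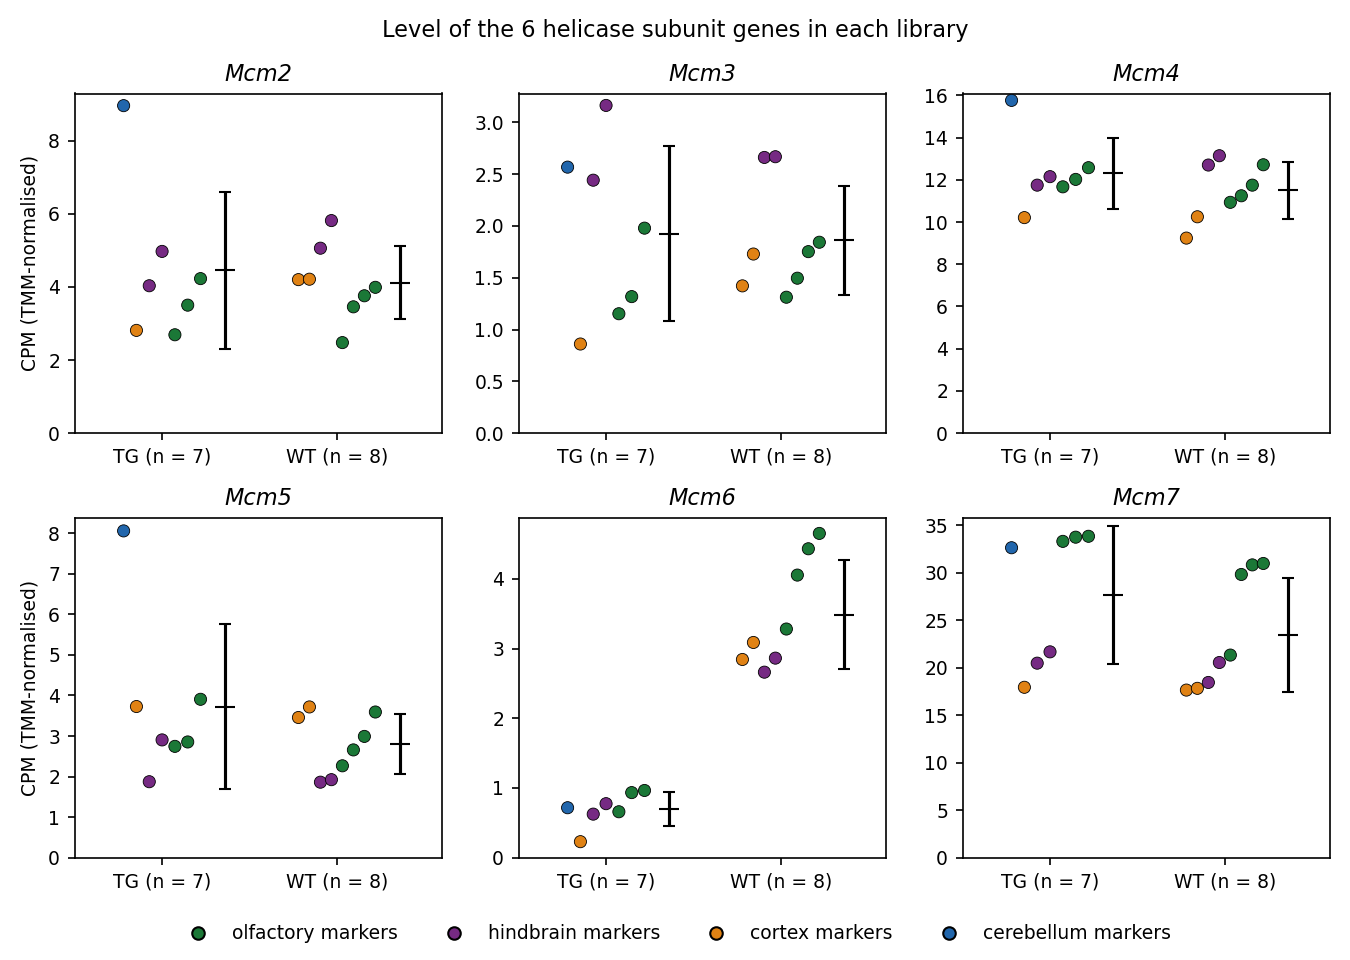
Level of each of the 6 subunit genes (y axis, TMM-normalised CPM from 0) in the 7 TG and 8 WT libraries. Points are libraries coloured by library class, and bars are the mean ± SD. Mcm6 in TG lies at 0.229 to 0.964 CPM, below all 8 WT libraries, and the ranges of the other 5 genes overlap between TG and WT.

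Mcm4 and Mcm7, which form with Mcm6 a subcomplex with helicase activity in vitro, were the most abundant subunits. Mcm4 (chromosome 16, 15623897 to 15637400) was at 10.2, 12.0 and 15.8 CPM in TG (lowest, median and highest of 7 libraries), against 9.24, 11.5 and 13.1 CPM in WT (8 libraries). Its level was the steadiest of the 6, with an SD of 0.18 on the log2 scale over all 15 libraries, against a median of 0.37 over all tested genes. The log2 difference (TG minus WT) of Mcm4 was 0.10 ± 0.11, with a 95% interval of -0.13 to 0.33 and adjusted p = 1.00 (edgeR, quasi-likelihood test). Mcm7 (chromosome 5, 138164583 to 138172111) was at 18.0, 32.7 and 33.9 CPM in TG, against 17.7, 21.0 and 31.0 CPM in WT. Its log2 difference was 0.24 ± 0.19, with a 95% interval of -0.18 to 0.66 and adjusted p = 1.00 (edgeR, quasi-likelihood test). The 3 olfactory-marker TG libraries had 33.3 to 33.9 CPM of Mcm7, above the 21.3 to 31.0 CPM of the 4 olfactory-marker WT libraries. With so few libraries such a separation can arise easily, and its share over all genes is not given here. Within that class alone the Mcm7 log2 difference was 0.26 ± 0.13, with an unadjusted p of 0.071 and an adjusted p of 0.79 in edgeR. Mcm7 overlaps its neighbour Ap4m1 by 91 bp and hosts the miRNA genes Mir25, Mir93 and Mir106b, so that part of its counts is uncertain if strand was not used in counting.

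Mcm2 and Mcm5 sit at the gate through which the ring opens onto DNA. Mcm2 (chromosome 6, 88883474 to 88898780) was at 2.69, 4.03 and 8.95 CPM in TG, against 2.48, 4.09 and 5.81 CPM in WT (lowest, median and highest). Mcm5 (chromosome 8, 75109468 to 75128439) was at 1.87, 2.90 and 8.06 CPM in TG, against 1.86, 2.82 and 3.72 CPM in WT. For both genes the highest value came from TG female 3, the cerebellum-marker library. The log2 differences (TG minus WT) were 0.06 ± 0.26 for Mcm2 (95% interval -0.49 to 0.61) and 0.38 ± 0.29 for Mcm5 (95% interval -0.23 to 0.99). Both had an adjusted p of 1.00 in edgeR. Without TG female 3 the log2 difference of Mcm2 was -0.16 and that of Mcm5 was 0.10.

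Mcm3, through which the loading complex takes hold of the ring, was the partner with the lowest CPM. Mcm3 (chromosome 1, 20802966 to 20820312) was at 0.860, 1.98 and 3.16 CPM in TG, against 1.31, 1.74 and 2.67 CPM in WT. Its log2 difference was -0.08 ± 0.26, with a 95% interval of -0.64 to 0.48 and an adjusted p of 1.00 in edgeR. The TG libraries spanned a wider range than the WT libraries, and the widest gap was between the sexes within TG, as described below.

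Thus 0 of the 5 partners passed an adjusted p of 0.05 for genotype in edgeR's quasi-likelihood test, and 0 had an unadjusted p under that value. DESeq2 called 0 of the 5 as well. Over all 17151 genes tested, 19 (0.111%) passed, 1.83% had an unadjusted p under 0.05 and DESeq2 called 0.233%. The intervals leave room for partner differences of up to 0.99 on the log2 scale upward (Mcm5) and 0.64 downward (Mcm3).

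**Figure D2:**
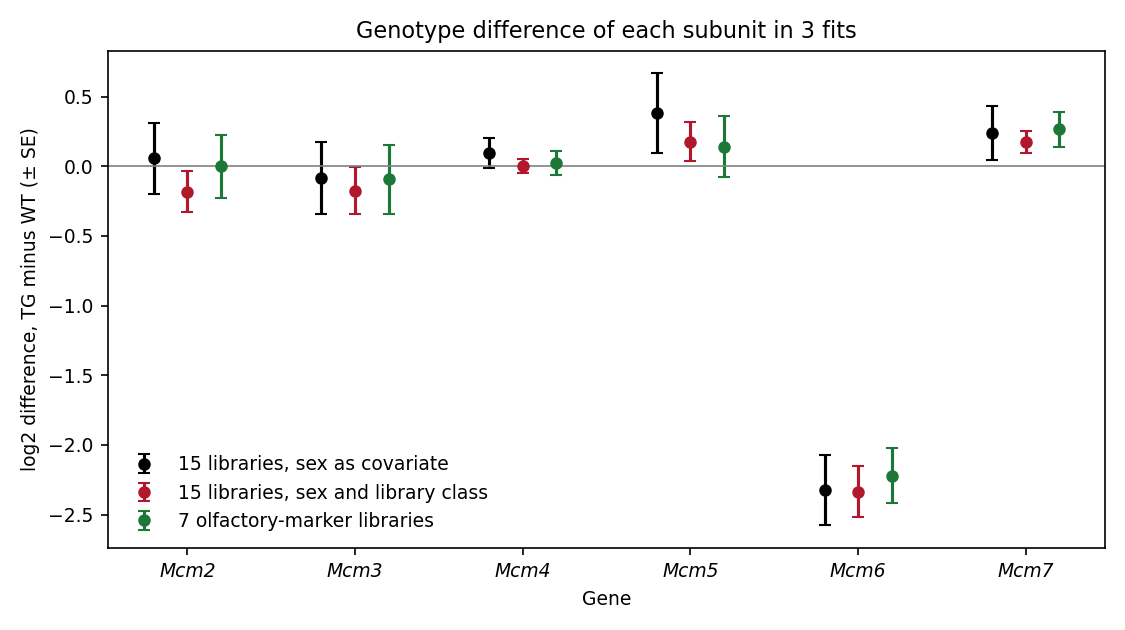
The log2 difference between TG and WT (y axis, TG minus WT) for each of the 6 genes (x axis), with its SE, in 3 fits: all 15 libraries, all 15 with library class as a further term, and the 7 olfactory-marker libraries. Mcm6 lies between -2.34 and -2.22, and the partners lie between -0.18 and 0.38.

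Mcm6 was also set out within each library class that held both genotypes. Among olfactory-marker libraries, Mcm6 was at 0.964, 0.659 and 0.933 CPM in TG (female 2, males 1 and 3), against 4.65, 4.43, 3.28 and 4.05 CPM in WT (females 1 and 4, males 1 and 2). Among hindbrain-marker libraries it was at 0.774 and 0.624 CPM in TG, against 2.86 and 2.66 CPM in WT. Among cortex-marker libraries it was at 0.229 CPM in the single TG library, against 2.84 and 3.09 CPM in WT. The TG mean was 20.8%, 25.3% and 7.74% of the WT mean in the olfactory-, hindbrain- and cortex-marker classes, and the cortex value rests on 1 TG library with 4 counts. With library class as a term, the log2 difference of Mcm6 was -2.34 ± 0.18, and in the olfactory-marker libraries alone -2.22 ± 0.20. With 1 library left out at a time, it ran from -2.47 (without TG male 3) to -2.16 (without TG male 4).

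The class term narrowed the intervals of the partners, and none of them passed. With it the biological coefficient of variation was 14.2%, against 43.1% without it, and 85 of 17151 genes (0.496%) passed for genotype. The 95% intervals of the log2 difference were then -0.11 to 0.12 for Mcm4, -0.50 to 0.13 for Mcm2, -0.54 to 0.19 for Mcm3 and -0.13 to 0.48 for Mcm5. Mcm7 came nearest to the threshold, at 0.17 ± 0.08, with an unadjusted p of 0.051 and an adjusted p of 0.60 in edgeR. In the olfactory-marker libraries alone, 0 of the 5 partners were among the 46 of 17213 genes (0.267%) that passed in edgeR. None of the 5 partners passed in any of the 25 alternative fits for genotype, and their lowest adjusted p among these was 0.60 (Mcm7, edgeR with the class term).

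The ranges of the subunits over the library classes are given as a description. How many of all genes separate by class was not counted, so the ranges are no result particular to these genes. Mcm7 was at 21.3 to 33.9 CPM in olfactory-marker libraries, against 18.5 to 21.7 CPM in hindbrain-marker and 17.7 to 18.0 CPM in cortex-marker libraries. Mcm3 was at 2.44 to 3.16 CPM in hindbrain-marker libraries, above the 0.860 to 1.98 CPM of all olfactory- and cortex-marker libraries. Mcm2 was also higher in hindbrain-marker libraries, at 4.03 to 5.81 CPM, against 2.48 to 4.23 CPM in olfactory-marker libraries, with a small overlap. Mcm5 ran the other way, at 1.86 to 2.90 CPM in hindbrain-marker libraries, against 3.46 to 3.73 CPM in cortex-marker libraries. In olfactory-marker libraries Mcm5 was at 2.27 to 3.91 CPM, which overlaps the hindbrain range. Mcm4 was lowest in the cortex-marker libraries, at 9.24 to 10.2 CPM, and at 10.9 to 13.1 CPM in the olfactory- and hindbrain-marker ones. Among WT libraries Mcm6 was at 3.28 to 4.65 CPM in the 4 olfactory-marker libraries and at 2.66 to 3.09 CPM in the other 4. TG female 3, with cerebellar markers, had the highest level of all 15 libraries for Mcm2 (8.95 CPM), Mcm4 (15.8 CPM) and Mcm5 (8.06 CPM), but 0.716 CPM of Mcm6.

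Markers of neuroblasts, the migrating young neurons, also differed between the classes. The summed level of 8 neuroblast markers (Dcx, Sox11, Dlx1 and others) was 444 to 1025 CPM in olfactory-marker libraries, against 86.8 to 131 CPM in hindbrain-marker and 158 to 195 CPM in cortex-marker libraries. Their order was not that of Mcm7 throughout. Hindbrain-marker libraries were below cortex-marker libraries in this sum, whereas Mcm7 was at 18.5 to 21.7 CPM in hindbrain-marker and 17.7 to 18.0 CPM in cortex-marker libraries. The cerebellum-marker library, TG female 3, had the lowest sum of all, 43.0 CPM, with 32.7 CPM of Mcm7. Between genotypes this sum was at 43.0 to 1025 CPM in TG, against 86.8 to 991 CPM in WT. In edgeR 0 of the 8 genes were called, where 19 of 17151 genes (0.111%) were, so the count of 0 is near the background. The part of this sum in the class pattern of Mcm7 was not tested.

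The balance between Mcm6 and its partners was shifted in each TG library. Mcm6 amounted to 1.74%, 1.77%, 1.05% and 1.52% of the summed CPM of the other 5 subunits in TG females 1 to 4, and to 1.22%, 1.76% and 0.645% in TG males 1, 3 and 4. In WT it amounted to 9.76%, 7.84%, 6.68% and 8.76% in females 1 to 4, and to 8.11%, 7.71%, 6.34% and 8.24% in males 1 to 4. The highest TG ratio (1.77%) was below the lowest WT ratio (6.34%). The partners together were at 35.6 to 68.0 CPM in TG, against 36.2 to 52.6 CPM in WT, so that the groups overlapped in the denominator.

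**Figure D3:**
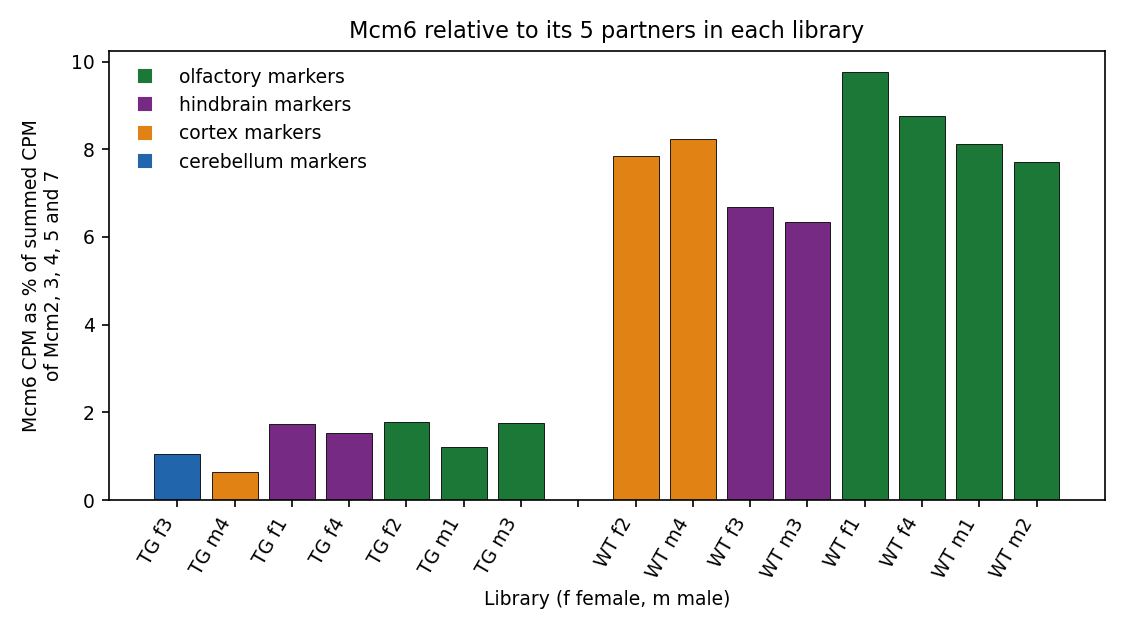
Mcm6 CPM as a percentage of the summed CPM of the other 5 subunits (y axis, from 0) in each library (x axis, TG then WT), coloured by library class. The 7 TG libraries lie at 0.645% to 1.77% and the 8 WT libraries at 6.34% to 9.76%.

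Levels of different genes were compared per kb of exon sequence. On that scale Mcm7 was the most abundant subunit, at 6.25 ± 1.63 CPM per kb in TG and 5.30 ± 1.36 CPM per kb in WT (SD, n = 7 and 8). Mcm4 followed at 3.43 ± 0.472 CPM per kb in TG and 3.20 ± 0.376 CPM per kb in WT. Mcm7 was above Mcm4, and Mcm4 above the next gene, in 7 of 7 TG and 8 of 8 WT libraries. Mcm6 was last in TG, at 0.150 ± 0.0524 CPM per kb, and below the next gene, Mcm3 (0.513 ± 0.226), in 7 of 7 TG libraries. In WT, Mcm6 at 0.747 ± 0.167 CPM per kb stood beside Mcm5 (0.703 ± 0.187) and Mcm2 (0.592 ± 0.144), and was above Mcm5 in 5 of 8 libraries. Neighbours in this middle group did not differ beyond their spread. Their order changed when lengths of the main transcript or of the coding sequence were used. Mcm2 moved most, its exon length being 6956 bp over all its transcripts and 3371 bp in the main one. Mcm6 made up 1.25 ± 0.383% of the summed level per kb of the 6 genes in TG, against 6.73 ± 0.857% in WT. Mcm7 made up 52.1 ± 6.69% in TG and 47.4 ± 5.89% in WT.

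Between the sexes, 0 of the 6 genes passed in edgeR's quasi-likelihood test, where 7 of 17151 genes (0.0408%) did, and DESeq2 called 0 of the 6 and 0.0525% of all genes. Mcm3 had the largest log2 difference (male minus female), -0.51 ± 0.26, with a 95% interval of -1.07 to 0.06 and an adjusted p of 0.93 in edgeR. It was at 0.860, 1.32 and 2.66 CPM in males (lowest, median and highest of 7), against 1.42, 2.21 and 3.16 CPM in females (8 libraries). Mcm6 differed by -0.24 ± 0.24 between males and females, with an adjusted p of 0.93 in edgeR. The other 4 genes lay between -0.26 and -0.0035 on the log2 scale.

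The genotype difference of Mcm3 had opposite signs in the sexes, and this did not survive adjustment. In females Mcm3 was at 3.16, 1.98, 2.57 and 2.44 CPM in TG, against 1.75, 1.42, 2.67 and 1.5 CPM in WT (libraries 1 to 4). In males it was at 1.15, 1.32 and 0.860 CPM in TG (libraries 1, 3 and 4), against 1.31, 1.84, 2.66 and 1.73 CPM in WT (libraries 1 to 4). All 4 TG females were above all 3 TG males, whereas WT females and WT males overlapped. The share of all genes with such a separation was not counted. The log2 difference (TG minus WT) was 0.46 ± 0.28 in females and -0.76 ± 0.31 in males, with adjusted p of 0.94 in both in edgeR, where 0.0466% and 0.00583% of genes passed. The interaction was -1.22 ± 0.41, with an unadjusted p of 0.011 and an adjusted p of 0.72 in edgeR. Over all genes the interaction fit called 0 of 17151 in edgeR (0%), with 698 at an unadjusted p under 0.05, and 5 in DESeq2 (0.0292%). Of the TG females, numbers 1 and 4 were hindbrain-marker and number 3 a cerebellum-marker library, and the TG males held none of these. With the class term the interaction of Mcm3 was -0.74 ± 0.31, with an adjusted p of 0.37 in edgeR.

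By sex, the log2 difference of Mcm6 (TG minus WT) was -2.25 ± 0.35 in females and -2.41 ± 0.39 in males, its sign being fixed by how the gene was chosen. Its interaction with sex was -0.16 ± 0.49, with a 95% interval of -1.23 to 0.90 and an adjusted p of 0.91 in edgeR. The interactions of the other 4 subunits lay between -0.85 and 0.23, with adjusted p of 0.72 to 0.83 in edgeR.

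Genes that act with the helicase were then examined in 6 lists of 101 replication and cell cycle genes, of which 94 could be tested. In edgeR 0 of the 94 passed for genotype and 1 had an unadjusted p under 0.05. DESeq2 called 1. Over all genes tested the shares were 0.111% passing and 1.83% at an unadjusted p under 0.05 in edgeR, and 0.233% called by DESeq2, so these low counts are no result about the lists. Of the 94, 55 had a positive and 39 a negative log2 difference, with a median of 0.05, against -0.00069 over all genes tested. The lowest and highest values were -0.61 and 0.90. Mcm6 was chosen for its low values in TG, so its distance from this range is no result.

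By role, 5 other MCM proteins, 9 genes of origin recognition and licensing and 11 genes of helicase activation had medians of 0.08, 0.03 and 0.04 on the log2 scale. None of the 25 was called. Mcm10, which helps to start the helicase, was at 0.677 ± 0.104 CPM in TG and 0.782 ± 0.292 CPM in WT. Mcmbp, a protein that binds MCM subunits, was at 24.8 ± 4.99 CPM in TG and 23.3 ± 3.93 CPM in WT. Cdc6, a loading factor, was at 0.507 ± 0.118 CPM in TG and 0.678 ± 0.248 CPM in WT, a log2 difference of -0.41 ± 0.26. Cdt1, the loading factor that binds MCM6, was at 3.16 ± 1.86 CPM in TG and 2.38 ± 0.756 CPM in WT, a log2 difference of 0.32 ± 0.31. Cdc45, which joins the ring when it is activated, was at 0.867 ± 0.209 CPM in TG and 0.686 ± 0.188 CPM in WT, a log2 difference of 0.31 ± 0.22.

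At the fork, 28 genes for polymerases, clamp, clamp loader and accessory factors had a median of 0.07, with 19 positive and 9 negative values and none called. Among them Prim1, the primase subunit, was at 4.41 ± 1.43 CPM in TG and 3.38 ± 0.818 CPM in WT, a log2 difference of 0.37 ± 0.21. The 13 E2F and pocket protein genes had a median of 0.07 and none called. E2f3 was at 29.6 ± 10.8 CPM in TG and 36.3 ± 8.44 CPM in WT, and E2f7 at 0.691 ± 0.359 CPM in TG and 0.490 ± 0.202 CPM in WT.

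The S phase and mitosis list had 28 tested genes, with a median of -0.08, 9 positive and 19 negative values and none called. Kif20a, a kinesin of cytokinesis, had the smallest p. It was at 6.95 ± 0.720 CPM in TG (6.27 to 8.07) and 4.56 ± 0.965 CPM in WT (3.03 to 6.14), so that the groups did not overlap. Its log2 difference was 0.62 ± 0.14, with an adjusted p of 0.25 in edgeR. With the class term it was 0.68 and passed, with an adjusted p of 0.015 in edgeR, and DESeq2 gave 0.63 with an adjusted p of 0.0074. Of all genes tested, 0.0933% had every TG library above every WT library, 0.496% passed with the class term and 0.233% with DESeq2. Kif20a was named for its small p, so its values are no result about the list. Bub1b, a spindle checkpoint kinase, had a larger log2 difference of 0.90 ± 0.47, but its values overlapped, at 1.49 to 7.13 CPM in TG, against 0.164 to 5.11 CPM in WT. Plk1, a mitotic kinase, was at 1.84 ± 0.332 CPM in TG and 2.33 ± 0.612 CPM in WT. The 6 genes of this list that could not be tested included Cdk1, the mitotic kinase, at 0 to 0.439 CPM in TG, against 0 to 0.573 CPM in WT.

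**Figure D4:**
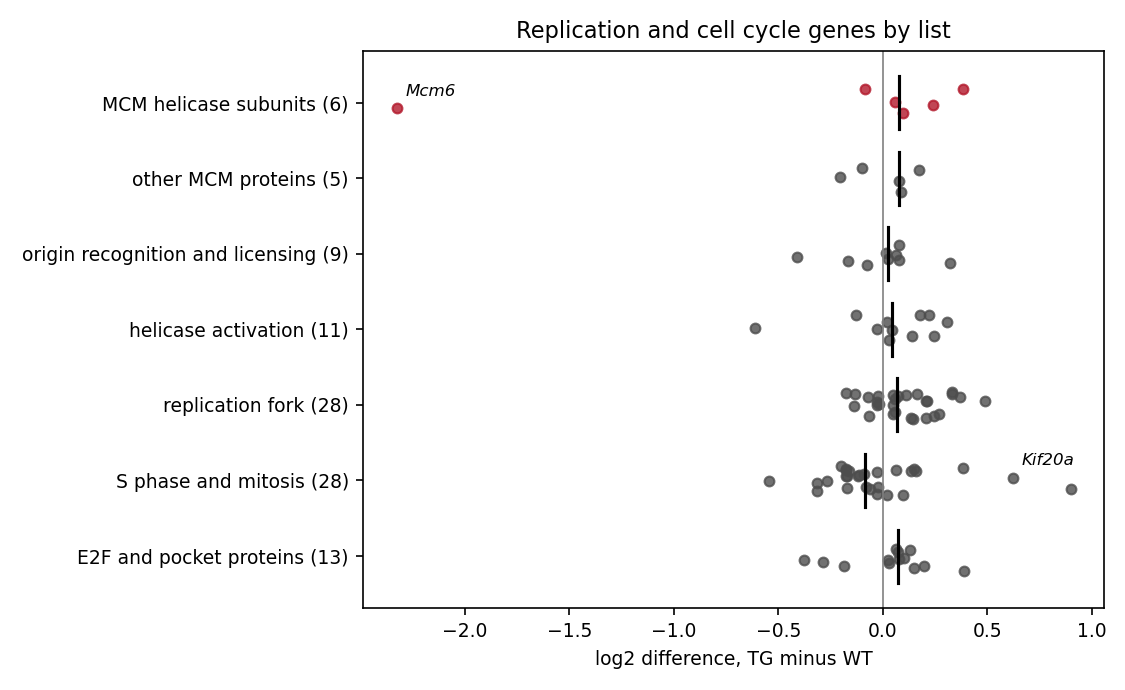
The log2 difference between TG and WT (x axis, TG minus WT) of each tested gene in the helicase and in 6 lists of replication and cell cycle genes (y axis, number of genes in brackets). The black line is the median of each list. Mcm6, chosen for its low values in TG, lies at -2.32, and the 94 listed genes lie between -0.61 and 0.90.

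Markers of other cell types were measured alongside. The 7 oligodendrocyte markers used (Mbp, Mog, Mag, Mobp, Mal, Cnp and Cldn11) had negative log2 differences with a median of -0.39, and none was called. Their summed level was 1550 to 15342 CPM in TG, against 1334 to 16746 CPM in WT. Oligodendrocyte precursor markers (8 genes, Pdgfra and Cspg4 among them) had a median of -0.17, with 1 positive and 7 negative values, and summed to 133 to 327 CPM in TG, against 208 to 373 CPM in WT. Neuroblast markers had a median of -0.23. Astrocyte, microglia, endothelial and neuron markers had medians of 0.03, -0.08, 0.11 and -0.10, with none called. With 0.111% of all genes passing in edgeR, counts of 0 in lists this short are near the background and are no result about these cells. With the class term the medians were -0.23 for oligodendrocytes, -0.10 for their precursors and 0.08 for neuroblasts. The part of these cells in the Mcm6 difference was not tested.

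None of the tested genes within 5 Mb of Mcm6 on chromosome 1 passed for genotype in edgeR with sex as covariate. Lct, the gene for lactase, ends 3.26 kb from Mcm6 on one side, and in humans an enhancer of it lies within an intron of MCM6. It was at 0.101 to 1.95 CPM in TG, against 0.0554 to 1.91 CPM in WT, a log2 difference of 0.14 ± 0.74. Dars, which encodes a cytosolic aspartyl-tRNA synthetase, begins 4.00 kb away on the other side. It was at 10.8 to 16.4 CPM in TG, against 11.8 to 16.8 CPM in WT, a log2 difference of -0.06 ± 0.12. Further out, Ubxn4, an endoplasmic reticulum protein that acts in protein degradation, differed by -0.02 ± 0.08, and Cxcr4, a chemokine receptor, by 0.10 ± 0.59. All 4 had an adjusted p of 1.00 in edgeR, and the TG and WT values of each overlapped.

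Within 1 Mb of Mcm6, 13 of 15 listed genes could be tested, with 6 negative and 7 positive values between -0.57 and 0.42. In edgeR 0 of the 13 passed, 0 had an unadjusted p under 0.05 and 0 had groups that did not overlap, and DESeq2 called 0. With 0.111%, 1.83% and 0.233% of all genes at these marks, and 0.0933% below and 0.0933% above in every TG library, counts of 0 among 13 are near the background. With the class term Mgat5 had a log2 difference of 0.25 ± 0.05, with an unadjusted p of 0.00036 and an adjusted p of 0.064 in edgeR. The 13 were Mgat5, Tmem163, Ccnt2, Map3k19, Rab3gap1, Zranb3, R3hdm1, Mir128-1, Ubxn4, Lct, Dars, Cxcr4 and Thsd7b. Within 5 Mb, 57 of 77 could be tested, and in edgeR 0 passed and 5 had an unadjusted p under 0.05. The shares over all genes were 0.111% and 1.83%, so the 5 were a larger share than over all genes, which was not tested. Of the 5, Slc35f5 had groups that did not overlap, at 6.70 to 9.03 CPM in TG, against 9.57 to 13.2 CPM in WT. Its log2 difference was -0.48 ± 0.10, with an adjusted p of 0.21 in edgeR. With the class term Slc35f5 was lower (-0.51, adjusted p = 0.036 in edgeR) and Pm20d1 was higher (0.76, adjusted p = 0.0074 in edgeR). These were the only genes of the 57 that passed with that term, where 85 of 17151 genes (0.496%) did. Both were named after their values were seen. Further out on chromosome 1, Nav1 (135434580 to 135688350) did pass, with a log2 difference of -1.07 and an adjusted p of 0.0043 in edgeR. It was at 77.5 to 151 CPM in TG, against 208 to 320 CPM in WT, and was also named after its values were seen. Genes beyond 5 Mb were not examined as a set.

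**Figure D5:**
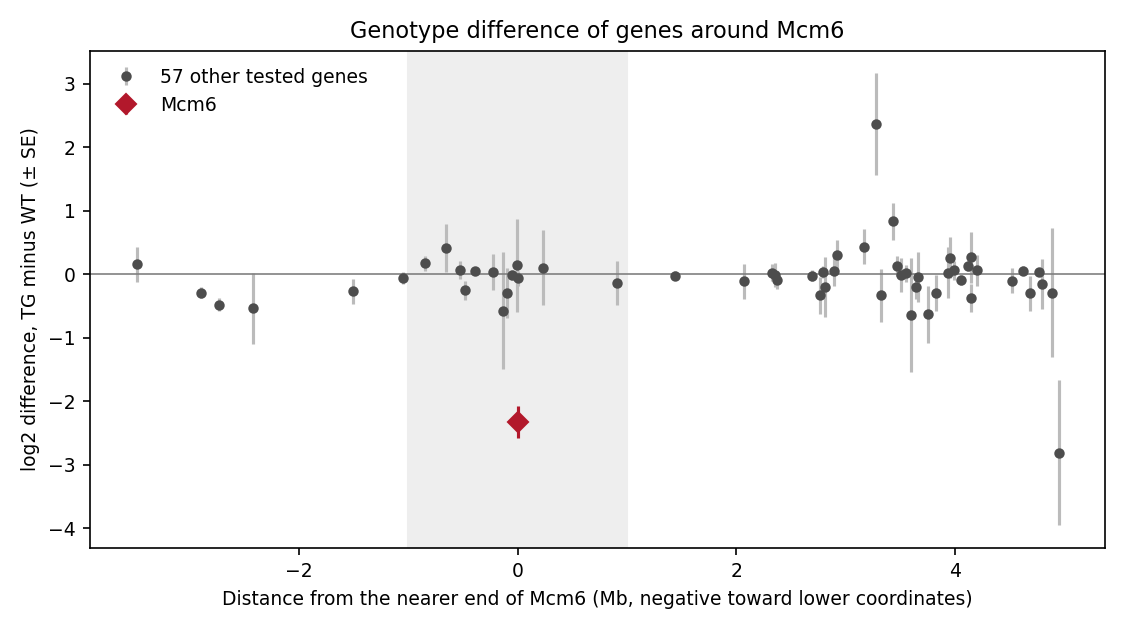
The log2 difference between TG and WT (y axis, TG minus WT, with SE) of Mcm6 and of 57 other tested genes against their distance from Mcm6 (x axis, Mb), the grey band marking 1 Mb on each side. Within the band the other genes lie between -0.57 and 0.42, and Mcm6 lies at -2.32.

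Likeness to Mcm6 was measured as the root mean square difference in mean-centred log2 CPM over the 15 libraries. Mcm6 itself had an SD of 1.22 on that scale, the largest of the 6 subunits, the other 5 lying at 0.18 to 0.52. The SD of Mcm6 was 0.57 within TG and 0.31 within WT, so most of its spread is the genotype split by which it was chosen. A gene without that split lies far from Mcm6 by that choice alone. The partners of Mcm6 were at 1.21 (Mcm3) to 1.39 (Mcm5) from it. Pairs among the partners were at 0.33 (Mcm4 and Mcm7) to 0.73 (Mcm3 and Mcm5). The nearest gene was Gm3435 on chromosome 17, at 0.50, with 8.37 to 15.04 CPM in TG, against 24.6 to 43.9 CPM in WT. A pair of IDs without a symbol followed at 0.54 and 0.55, with nearly equal means of 7.35 and 7.41 CPM in TG and of 19.2 and 19.1 CPM in WT, so that they may share reads. Tcte3, a dynein light chain gene beside Gm3435, was at 0.59, with 0.358 to 0.839 CPM in TG, against 1.26 to 2.11 CPM in WT. Pcdhga11, a cell adhesion protein of the clustered protocadherins, was at 0.64, with 10.7 to 17.7 CPM in TG, against 19.6 to 57.3 CPM in WT. In all 5 the TG libraries lay below the WT libraries without overlap, as in 16 of all 17151 tested genes (0.0933%). This lack of overlap follows largely from how the 5 were picked. They share these 15 libraries and the same genotype split with Mcm6.

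For the partners, the nearest genes over the 15 libraries were closer. Mcm4 was within 0.09 of Ubxn4 and U2af1, and Mcm7 within 0.11 of 4930503L19Rik and Ptbp1. Mcm3 was 0.21 from Pald1 and Fadd, Mcm2 was 0.23 from Aaas and Cfap43, and Mcm5 was 0.22 and 0.23 from Zfyve28 and Capn15. For none of these 10 genes was an adjusted p for genotype under 0.05 in edgeR, where 19 of 17151 genes (0.111%) passed. The 10 were picked for likeness to genes that were not called, so this is no result about them.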

How the data were processed

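Bulk RNA was sequenced from 15 brain libraries of mice aged 12 months. Per the labels' protocols, a stranded ribosomal RNA depletion kit was applied to 250 ng of total RNA, although the labels' molecule field names polyA RNA, and paired reads of 100 bp were obtained. The deposited values are raw read counts per gene, with no normalization by the authors. The aligner was STAR 2.7.5b, the build GRCm38 and the counter featureCounts (Subread), per the submitters' processing notes. The strand and multimapping settings were not given in the sources used here.

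Counts were matched to libraries by the number in the sample title, and 0 columns were left without a sample. RefSeq on GRCm38.p6 named 25275 of 27179 gene IDs, GENCODE named 18 more, and 1886 had no name. Exon, transcript and coding lengths came from GENCODE on GRCm38. RNA of the human transgene was not analysed here. 1 oligodendrocyte marker is not reported here and was left out of its list.

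The 6 members and all gene lists were chosen with earlier results of these data known. edgeR 4.0.16 (R 4.3.3) was used with TMM scaling, its expression filter over the 4 groups and robust quasi-likelihood tests, with genotype and sex as terms. Within-sex differences and the interaction came from a fit of the 4 group means. P-values were Benjamini-Hochberg adjusted over all genes tested, with a threshold of 0.05. SE is the size of the log2 difference over the square root of F. CPM values are TMM-normalised, and likeness used log2 CPM with a prior count of 2. The limit that 3 counts allow was 0.0837 to 0.198 CPM per library. No pair of libraries of a group agreed within sampling noise (lowest chi-square per gene 6.03).

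Library classes were set by Hoxa5 of at least 10 CPM (hindbrain), Gabra6 of at least 10 CPM (cerebellum) and Neurod6 of at least 100 CPM (cortex), the rest being olfactory. Alternatives were RLE size factors, no filter on low counts, a mean of at least 1 CPM, DESeq2 1.42.0, a non-robust fit, a replicate block, no sex term, a class term, fewer library classes, other gene lengths, a window of 5 Mb and each library left out. Named genes were the 6 members, pathway genes that were called or else up to 3 per list with the smallest p, of which not all are given, the neighbours on each side of Mcm6 and the nearest genes by likeness. Slc35f5, Pm20d1, Nav1 and the further examples from marker lists were named after their values were seen. The fit was tested on simulated data, with 200 of 17151 genes changed. The expression filter then left 16950 genes, and a changed gene that it dropped was counted as not recovered. The fit recovered 14% of 1.5-fold, 52% of 2-fold, 76% of 4-fold and 90% of 5-fold changes (50 genes each), and called 6 unchanged genes. Moderate changes can therefore be missed.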

Additional observations from a re-analysis of the deposited data

Results flagged for a closer look

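TG female 3, the library with cerebellar markers, stood far from the other TG libraries for 3 of the 6 genes. Mcm2 was at 8.95 CPM in it, against 2.69 to 4.97 CPM in the other 6 TG libraries. Mcm5 was at 8.06 CPM, against 1.87 to 3.91 CPM in the other 6. Mcm4 was at 15.8 CPM, against 10.2 to 12.6 CPM in the other 6 TG libraries and 11.7 to 12.1 CPM in the other 3 TG females. In each case the gap to the next library, as a share of the whole range, was above Dixon's critical value. Of 30 sets of values examined, 4 were marked in this way, and chance marks about 1 in 20.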

How the results depend on the processing

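The log2 difference of Mcm6 for genotype lay between -2.47 and -2.16 in 25 alternative fits, its sign being fixed by how the gene was chosen, and no partner passed in any of them. The count of genes called for genotype was 19; it was 40 with DESeq2, 85 with the class term, 7 without hindbrain- and cerebellum-marker libraries, 46 in olfactory-marker libraries alone, 16 with a replicate block, and 14 to 21 with a library left out. Replication and cell cycle genes called numbered 1 with DESeq2 and 1 with the class term (Kif20a in both), against 0. Within females 8 genes were called, against 4 with no filter, 20 with DESeq2, 4 with the replicate block, 21 with the class term and 1 to 7 with a library left out. Within males 1 was called, against 42 with DESeq2, 46 with the class term and 1 to 2 with a library left out. For sex 7 were called, and 12 with the class term; for the interaction 0, and 5 with DESeq2. The Mcm6 share per kb in WT was 7.95% with main transcript lengths.

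Values near 0 changed sign, and the cause was not tested. For genotype, Mcm2 was -0.18 with the class term, -0.16 without hindbrain- and cerebellum-marker libraries and -0.16 to 0.16 with a library left out, and Mcm3 was 0.043 without the sex term and -0.19 to 0.061 with a library left out. For sex, Mcm2 was 0.069 with the class term, 0.031 without hindbrain- and cerebellum-marker libraries and 0.088 in olfactory-marker libraries. In the same 3 fits Mcm4 was 0.12, 0.10 and 0.12, and it was 0.0056 with RLE size factors, 0.00012 with no filter and 0.0054 with DESeq2. With a library left out, the sex values were -0.051 to 0.054 for Mcm4, -0.29 to 0.046 for Mcm5 and -0.14 to 0.044 for Mcm7, and the interactions were -0.68 to 0.097 for Mcm5 and -0.61 to 0.22 for Mcm6. The interaction of Mcm4 was 0.0099 with the class term.

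Correlations of same-numbered libraries' deviations ran from -0.63 to 0.92, with 7 of 21 over 0.1, against -0.84 to 0.78 for other pairs. These wide ranges do not settle whether replicate numbers pair the libraries. Depth limits Mcm6 in TG (4 to 19 counts per library).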
